A study of Mus musculus with 18 samples.

Results

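The livers of mice given rapamycin were compared directly with those of mice given TM5614, gene by gene and without the control as a reference. Both groups were C57BL/6J mice that had the compound mixed into their chow for 8 weeks, starting when the animals were 21 weeks old. Rapamycin was given at 42 mg/kg/day to 1 group and TM5614 at 20 mg/kg/day to the other, so each difference is between the compounds as dosed. The labels list 3 libraries in each group, 6 of the 18 in the series. Livers had been perfused with PBS, and RNA came from minced whole liver, read from poly(A)-selected libraries. The labels give no sex, no hour of collection and no batch. All genes with a mean of at least 10 normalized counts over the 5 groups of the series were taken, which were 11201 of the 12019 genes in the table. The measure for every gene was log2((rapamycin + 1)/(TM5614 + 1)), the ratio of the group means, in which a positive value is higher under rapamycin.

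Rapamycin binds the immunophilin FKBP12, and the pair inhibits mTOR, the kinase that joins nutrient and growth factor signals to protein synthesis, lipid synthesis and autophagy. TM5614 is a small molecule that acts on fibrinolysis, the breakdown of fibrin by plasmin, which proteases make from plasminogen. The liver also holds a strong circadian clock, in which BMAL1 (encoded by Arntl) and CLOCK switch on the Per and Cry genes and the output factor Dbp through E-box sequences, and the Per and Cry proteins then repress them. In liver the transcripts of this loop go up and down over each day, with Arntl and Dbp peaking at opposite times.

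The authors deposited group means only, but for 8265 of the 11201 genes the values of the single libraries could be recovered. A group mean is the sum of 3 whole read counts, each divided by the size factor of its library, and for these genes exactly 1 set of whole reads gave the mean of each group to all 10 deposited digits. The libraries are called A, B and C within each group, in the order of what 1 read adds to the mean. The letters are not the replicate numbers of the labels and pair no library with another. Values given as a row of 3 are those of A, B and C, in normalized counts. All 4439 genes with a mean of 10 to 100 were recovered in this way, 91.7% of the 3359 genes at 100 to 300, 32.7% of the 2278 genes at 300 to 1000 and 0% of the 1125 genes above that. Genes without library values have a ratio of group means and no test. Depth was alike between the libraries, with size factors of 0.999 to 1.07 over all 6, and the group means summed to 7.94e+06 normalized counts under rapamycin and 7.78e+06 under TM5614. The depth of a library in reads is not known beyond this.

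One library stood apart before any comparison. Rapamycin library A was more than 2-fold above both other rapamycin libraries in 149 of the 8265 genes and more than 2-fold below both in 156, whereas each of the other 5 libraries was above both others of its group in 16 to 38 genes and below in 39 to 58. More than 4-fold above were 56 genes in rapamycin library A and 0 to 6 genes in each other library. Its log2 values correlated with those of rapamycin libraries B and C across genes at r = 0.935 and 0.924, while B and C correlated at 0.959 (these are across genes, which are not independent replicates). Hepatocyte markers were abundant, with the albumin gene Alb at 557685 normalized counts under rapamycin and 637023 under TM5614. Of the 12 exocrine pancreas genes measured, 9 were at 0 in both groups. Neutrophil markers were high in library A alone and are given with its other genes.

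Between the compounds 94 of the 8265 genes with library values passed the test, which was limma on log2(value + 1) with Benjamini-Hochberg adjustment over all 8265 genes and an adjusted p under 0.05. Of these, 37 genes (0.448% of those tested) were higher under rapamycin and 57 (0.69%) were lower. Before adjustment 1452 of the 8265 genes had a p under 0.05. In 48 of the 94 the difference was at least 2-fold, and in all 94 the 3 rapamycin libraries lay on one side of the 3 TM5614 libraries. By that looser rule of libraries that do not overlap, 838 genes (10.1%) were higher under rapamycin and 1151 (13.9%) were lower. Most of the calls rest on having all 6 libraries: 8 genes stayed called whichever library was left out, namely Arntl, Pnkd, BC021767, Ccnd1, Cobl, Dbp, Per2 and Per3. The other 86 lost the call in at least 1 of the 6 fits, 17 of them in all 6, with an adjusted p of at most 0.18, and 0 genes changed sign. Where an adjusted p without 1 library is given for a gene below, it is the highest of the 6 fits. Other fits may have lost the call too. Leaving out 1 library leaves a group of 2, and in these fits, as in the main fit, the spread is taken from both groups together. Without rapamycin library B 11 genes were called, without TM5614 library B 16, without TM5614 library A 21, without rapamycin library C 32 and without TM5614 library C 61. Leaving out rapamycin library A gave 99 calls, 71 of them among the 94. As nothing in the labels ties the libraries to separate cages, litters or days, the p-values measure the spread between these libraries.

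The ratio of the group means had a median of 0.01 over the 11201 genes, and its middle 90% ran from -0.65 to 0.53. It was above 0 in 51.2% of these genes and below 0 in 48.7%, the shares to set beside the lists below. At least 2-fold higher under rapamycin were 174 genes (1.55%), and at least 2-fold lower were 150 (1.34%). These counts differ in what stands behind them. Of the 174 higher genes, 121 have library values, and 64 of these had all 3 rapamycin libraries above all 3 TM5614 libraries. Of the 121, 50 stayed past 2-fold without rapamycin library A, and 20 were called. Of the 150 lower genes, 128 have library values, 111 of these had all 3 rapamycin libraries below, 98 stayed past 2-fold without library A, and 29 were called. With a pseudocount of 10 the 174 became 133 and the 150 became 67. With a mean of at least 50 they became 118 and 67. The 15 highest and 15 lowest ratios among genes with a higher group mean of at least 50 are extremes of these same genes. They are described here and are no further evidence. Of the 15 highest, 10 have library values, and in 9 of those rapamycin library A was more than 4-fold above both other libraries, the exception being the called gene Arntl. Of the 15 lowest, 12 have library values and 10 were called.

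**Figure D1:**
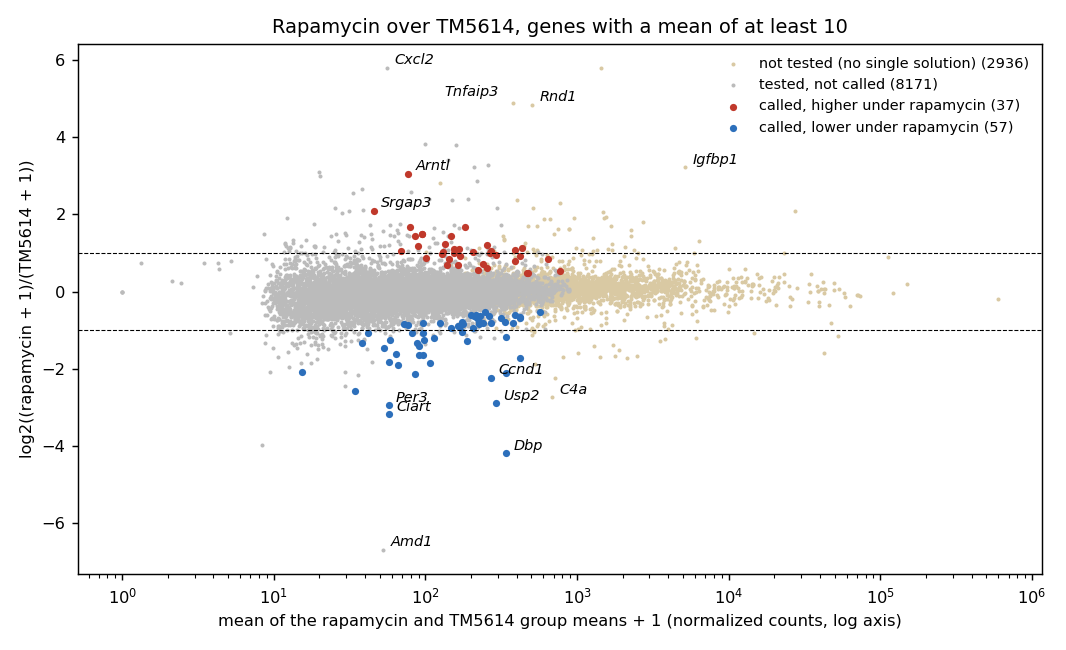
Each point is 1 of the 11201 genes, placed by the mean of its rapamycin and TM5614 group means plus 1 (log axis, normalized counts) and by its log2 ratio of rapamycin over TM5614, with dashed lines at 2-fold. The 37 genes called higher (red) and 57 called lower (blue) lie among the genes with library values (grey), and the 2936 genes without them (tan) include Rnd1 and Igfbp1 near the top.

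Circadian clock genes differed between the groups in both directions. Under rapamycin the positive-limb gene Arntl and the late repressor Cry1 were higher than under TM5614, and 6 genes that BMAL1 and CLOCK drive (Dbp, Ciart, Per3, Usp2, Per2 and Wee1) were lower. Of the 14 core clock genes kept, 11 have library values, 2 of these were called higher and 3 lower under rapamycin. Of 12 output genes 7 have library values, and 0 were called higher (2 at an unadjusted p under 0.05) and 3 lower. These counts stand beside 0.448% and 0.69% of all genes tested. The hour of collection is not in the labels for any library, so a difference in hour between the groups and one between the compounds cannot be told apart in these genes. The clock lists were drawn up knowing that Dbp moves in these livers, so their counts are a description. With voom weights on the recovered reads, a choice added after the data were seen, Ciart and Usp2 were no longer called (adjusted p = 0.0757 and 0.0834), while Cry2 and Nfil3 were (0.0396 and 0.0425).

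Arntl, on chromosome 7 from 113207465 to 113314126 (mm10, protein-coding, as are the other genes located here unless stated), had 117, 134 and 159 under rapamycin, against 13.03, 10.3 and 23.7 under TM5614. All 3 rapamycin libraries were far above all 3 TM5614 libraries (log2 difference of 3.12 ± 0.30 (SE), adjusted p = 0.00597). Dbp, a PAR bZIP factor that drives detoxification and metabolic genes (chromosome 7, 45705088 to 45710203), was the gene with the lowest ratio among those called. It had 33.7, 33.1 and 36.03 under rapamycin, against 820.2, 793 and 319 under TM5614. The rapamycin libraries were close together, while TM5614 library C lay below TM5614 libraries A and B and still far above every rapamycin library (log2 difference of -4.07 ± 0.31 (SE), adjusted p = 0.00294). Cry1, a repressor of the loop that peaks late in the cycle, had 127, 127 and 117 under rapamycin, against 48.4, 64.4 and 49.4 under TM5614. It was higher in every rapamycin library (log2 difference of 1.19 ± 0.16 (SE), adjusted p = 0.0193, and 0.0948 without TM5614 library A).

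The period genes were lower. Per3 (chromosome 4, 151003652 to 151044665) had 11.5, 11.7 and 13.01 under rapamycin, against 145, 96.1 and 59.3 under TM5614. Per2 (chromosome 1, 91415982 to 91459324) had 32.7, 28.2 and 31.02 under rapamycin, against 164, 157 and 94.9 under TM5614. In both genes the highest rapamycin library was below the lowest TM5614 library, with a log2 difference of -2.86 ± 0.32 (SE), adjusted p = 0.00871, for Per3 and a log2 difference of -2.1 ± 0.23 (SE), adjusted p = 0.00871, for Per2. Ciart, a transcriptional repressor of the loop listed as Gm129 (chromosome 3, 95878503 to 95882251), had 14.4, 2.92 and 14.01 under rapamycin, against 121, 143 and 44.5 under TM5614. Its libraries did not overlap (log2 difference of -3.26 ± 0.59 (SE), adjusted p = 0.0387), and the call was lost without TM5614 library B (0.165). Per1, the member of the family that also answers to acute signals, had 232, 108 and 125 under rapamycin, against 303, 315 and 205 under TM5614, and these libraries overlapped (log2 difference of -0.87 ± 0.28 (SE), adjusted p = 0.164).

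In TM5614 library C the E-box targets were nearer to the rapamycin level than in TM5614 libraries A and B. This held for Dbp, Per2, Per3 and Ciart above and for the deubiquitinase gene Usp2, which had 68.3, 55.4 and 80.1 under rapamycin, against 606, 764 and 169 under TM5614. Usp2 was called over all libraries (log2 difference of -2.65 ± 0.47 (SE), adjusted p = 0.0372) and not without TM5614 library A (0.151). Wee1, a cell cycle kinase whose gene carries E-boxes, had 31.7, 20.4 and 20.01 under rapamycin, against 106, 98.02 and 61.3 under TM5614, with a log2 difference of -1.83 ± 0.28 (SE), adjusted p = 0.025, and 0.132 without TM5614 library A. Cipc, a CLOCK-interacting inhibitor listed as 2310044G17Rik and chosen after its values were seen, had 319, 285 and 350.3 under rapamycin, against 478, 572 and 499 under TM5614. Here the libraries were apart by less than 2-fold (log2 difference of -0.70 ± 0.11 (SE), adjusted p = 0.0313, and 0.126 without TM5614 library B).

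Several partners had libraries that did not overlap and did not pass. Clock had 382, 455 and 318 under rapamycin, against 200.2, 205 and 276 under TM5614 (log2 difference of 0.76 ± 0.16 (SE), adjusted p = 0.067). Cry2 had 153, 97.2 and 87.1 under rapamycin, against 259.7, 237 and 197 under TM5614 (log2 difference of -1.07 ± 0.21 (SE), adjusted p = 0.0511). Nfil3, a repressor that competes with DBP for the same sites, had 908, 638 and 776 under rapamycin, against 333, 530.2 and 321 under TM5614 (log2 difference of 0.99 ± 0.20 (SE), adjusted p = 0.0534). Rora, an activator of Arntl, had a log2 difference of 0.75 ± 0.18 (SE), adjusted p = 0.0878. Clock, Nfil3 and Rora had their higher values under rapamycin, as Arntl did, and Cry2 its lower ones, as Per2 did. Not every clock gene differed in this way. Nr1d1, which encodes the heme receptor REV-ERB alpha and represses Arntl, had 599, 589 and 544 under rapamycin, against 506, 442 and 903 under TM5614 (log2 difference of -0.03 ± 0.23 (SE), adjusted p = 0.965), and Hlf, a PAR bZIP relative of Dbp, had 341, 372 and 347 under rapamycin, against 292, 460.2 and 402 under TM5614 (log2 difference of -0.10 ± 0.16 (SE), adjusted p = 0.774). In both genes the libraries of the groups were interleaved.

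Abundant clock outputs have group means only. Tef, a PAR bZIP gene like Dbp and Hlf, averaged 384 under rapamycin and 1238 under TM5614. Its rapamycin libraries had 416, 351 and 384, so the low rapamycin mean came from all 3. Alas1, the rate-limiting enzyme of heme synthesis, averaged 2249.8 under rapamycin and 5289.9 under TM5614, and Por, the electron donor of cytochromes P450, averaged 3002 and 5475 in the same order. Bhlhe40, a repressor of the loop, averaged 2374 under rapamycin and 1002 under TM5614, and Nr1d2 averaged 440.0 and 785. In the authors' deposited table Dbp differed from the control in opposite directions, with log2 fold changes of -2.37 under rapamycin (adjusted p = 0.00787) and 1.86 under TM5614 (adjusted p = 0.0265). For Per3 the same authors' deposited table has -1.0 (adjusted p = 0.507) under rapamycin and 2.06 (adjusted p = 0.00521) under TM5614. These comparisons share their control libraries.

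**Figure D2:**
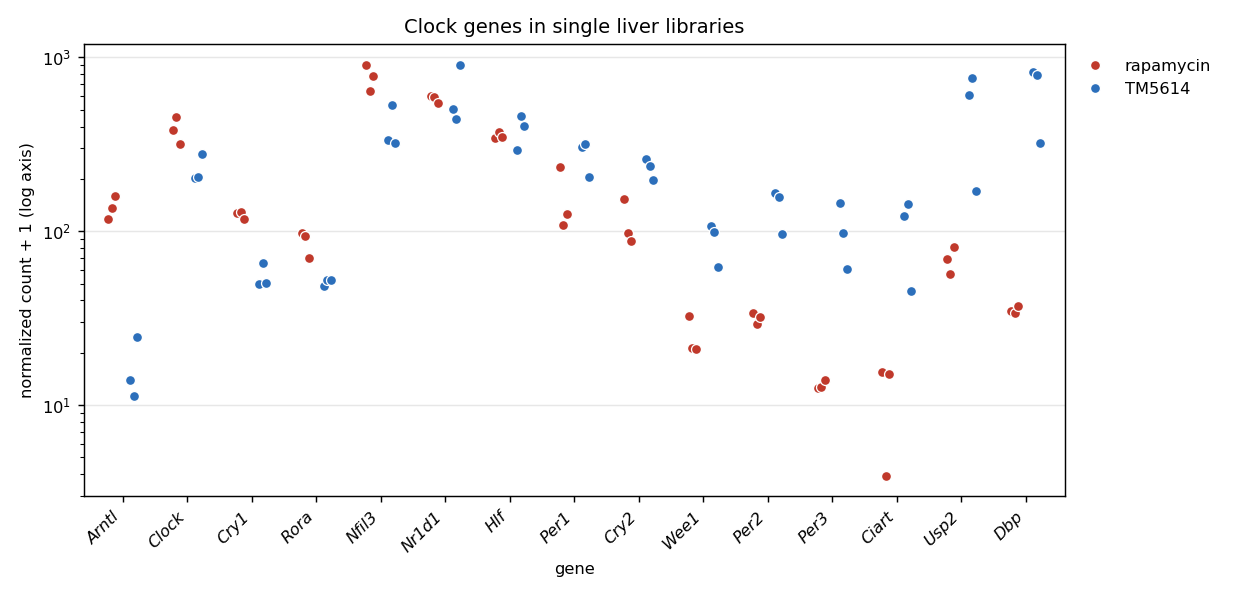
Normalized counts plus 1 (log axis) of 15 clock genes in each of the 3 rapamycin libraries (red) and 3 TM5614 libraries (blue), 1 point per library. Arntl and Cry1 at the left are higher in every rapamycin library, Nr1d1 and Hlf in the middle overlap, and Per2, Per3, Ciart, Usp2 and Dbp at the right are lower in every rapamycin library.

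The promoters of 3 called clock genes are given because the genes moved in both directions and carry the elements of the loop. Each line is the 250 bases before the RefSeq start of the gene (GRCm38.p6, 5′ to 3′ on the gene's strand), with matches in capitals. Ciart (chr3:95882229-95882478, minus strand) has 3 E-boxes, CACGTG, which begin 116, 58 and 44 bases before the start. Per3 (chr4:151044666-151044915, minus strand) has 2 D-boxes, TTATGTAA, the sequence that DBP, TEF and HLF bind and NFIL3 competes for, at 205 and 158 bases before. Cry1 (chr10:85185055-85185304, minus strand) has 1 E-box at 60 bases before.
Ciart: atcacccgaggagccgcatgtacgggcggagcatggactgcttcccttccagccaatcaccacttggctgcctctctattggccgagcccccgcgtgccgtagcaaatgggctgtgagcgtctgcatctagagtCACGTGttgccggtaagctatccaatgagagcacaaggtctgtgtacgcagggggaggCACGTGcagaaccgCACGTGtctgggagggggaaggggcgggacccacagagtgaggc
Per3: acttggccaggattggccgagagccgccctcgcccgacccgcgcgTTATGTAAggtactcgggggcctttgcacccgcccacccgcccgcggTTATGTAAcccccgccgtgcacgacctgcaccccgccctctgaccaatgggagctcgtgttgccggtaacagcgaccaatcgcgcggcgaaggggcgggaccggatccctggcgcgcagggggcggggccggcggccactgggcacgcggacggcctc
Cry1: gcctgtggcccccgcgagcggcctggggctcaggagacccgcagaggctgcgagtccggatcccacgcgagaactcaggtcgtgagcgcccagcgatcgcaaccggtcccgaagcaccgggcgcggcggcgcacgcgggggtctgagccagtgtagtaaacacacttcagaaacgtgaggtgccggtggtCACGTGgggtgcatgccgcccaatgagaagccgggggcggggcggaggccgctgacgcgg
Of 26 clock genes listed, 21 have a promoter in the RefSeq table, and 7 of these held CACGTG on either strand in the window of 250 bases before to 50 after a start, against 8.09% of all 27025 genes in that table. They were Bhlhe41, Cry1, Ciart, Lonrf3, Per1, Tef and Tspan4. The motif TTATGTAA was in 1 of the 21, Per3, against 1.11% of all genes, and the other D-box letters, TTACGTAA, were in 0 of the 21, against 0.126%. CACGTG reads the same on both strands, and a match is a description of these windows only.

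Outside the clock, the genes lower under rapamycin included cell cycle, growth factor and endothelial genes, those below being chosen after their values were seen unless they belong to the lists or to the 15 lowest ratios. Ccnd1, which encodes cyclin D1 and drives entry into the cell cycle (chromosome 7, 144929931 to 144939925), had 68.3, 107 and 105 under rapamycin, against 612, 329 and 397 under TM5614. Every rapamycin library was far below the lowest TM5614 library (log2 difference of -2.22 ± 0.24 (SE), adjusted p = 0.00871). It was the only gene called among the 13 cell cycle genes tested, with 0 higher, also before adjustment, and 1 lower (4 before adjustment). The share called lower was 0.69% over all genes tested. Of the 13, 5 had a ratio above 0 and 8 below, with a median of -0.17. All rapamycin libraries were below in 4 of them and above in 0, beside 13.9% and 10.1% of all genes. Ccne1, Mcm5 and Mcm6, which act at the start of DNA replication, also had all 3 rapamycin libraries below. Ccne1, for cyclin E1, had 22.1, 4.86 and 16.01 under rapamycin, against 42.8, 49.5 and 23.7 under TM5614 (log2 difference of -1.52 ± 0.50 (SE), adjusted p = 0.185).

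Cobl, an actin nucleator (chromosome 11, 12236608 to 12464960), had 107, 101 and 117 under rapamycin, against 259, 267 and 274 under TM5614. The libraries of each group lay close together and far from the other group (log2 difference of -1.29 ± 0.11 (SE), adjusted p = 0.0033). In the authors' deposited table Cobl, like Dbp, moved in opposite directions from the control, with -0.58 under rapamycin (adjusted p = 0.0388) and 0.72 under TM5614 (adjusted p = 0.000755); no other gene was called in opposite directions there. BC021767, a transcribed pseudogene (chromosome 3, 94661830 to 94670696), had 12.5, 6.805 and 7.01 under rapamycin, against 55.9, 50.4 and 67.2 under TM5614 (log2 difference of -2.63 ± 0.29 (SE), adjusted p = 0.00871), and as a pseudogene it may share reads with its parent.

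Signalling and epithelial genes were among the calls. Ppl, for the cell junction protein periplakin, had 125, 67.1 and 189 under rapamycin, against 742, 395 and 512 under TM5614, with a log2 difference of -2.18 ± 0.35 (SE), adjusted p = 0.0286, and 0.132 without TM5614 library A. Tgm1, a transglutaminase, had 44.2, 41.8 and 42.03 under rapamycin, against 170.4, 128 and 109.7 under TM5614, and its libraries were well apart (log2 difference of -1.63 ± 0.19 (SE), adjusted p = 0.0096, and 0.0542 without rapamycin library B). Nrg4, a ligand of ERBB4, had 39.4, 42.8 and 55.04 under rapamycin, against 141, 182 and 111 under TM5614 (log2 difference of -1.62 ± 0.21 (SE), adjusted p = 0.0174, and 0.095 without TM5614 library A). Eif4ebp3, a member of the 4E-BP family of translation repressors, had 179, 223 and 220.2 under rapamycin, against 563, 407 and 433 under TM5614, lower in every rapamycin library (log2 difference of -1.16 ± 0.15 (SE), adjusted p = 0.0145, and 0.0634 without rapamycin library B). Slc5a6, the transporter of biotin and pantothenate, had 54.8, 52.5 and 63.05 under rapamycin, against 142, 155 and 114 under TM5614 (log2 difference of -1.25 ± 0.17 (SE), adjusted p = 0.0174, and 0.095 without TM5614 library A). Scara5, a ferritin receptor, had 325, 111 and 145 under rapamycin, against 537, 776 and 608 under TM5614. Its rapamycin library A was more than 2-fold above B and C, and its call was lost without TM5614 library B (log2 difference of -1.86 ± 0.34 (SE), adjusted p = 0.0386 with all libraries, 0.16 without it).

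Bmp2, Tgfbr2 and Pros1 were also lower under rapamycin. Bmp2, a ligand that induces hepcidin, had 47.1, 61.2 and 45.03 under rapamycin, against 103, 135 and 88.96 under TM5614. Tgfbr2, a TGF-beta receptor, had 226, 182 and 183 under rapamycin, against 328, 334 and 376 under TM5614. In both genes the libraries did not overlap, with a log2 difference of -1.07 ± 0.20 (SE), adjusted p = 0.0455, for Bmp2 and a log2 difference of -0.81 ± 0.12 (SE), adjusted p = 0.0244, for Tgfbr2. Pros1, for the anticoagulant protein S, had 469, 446 and 473 under rapamycin, against 678, 679 and 648 under TM5614 (log2 difference of -0.53 ± 0.08 (SE), adjusted p = 0.0286). The 3 calls were lost when 1 library was left out, at an adjusted p of 0.172 without TM5614 library B for Bmp2, 0.095 without TM5614 library A for Tgfbr2 and 0.133 without TM5614 library A for Pros1. Of the 6 such fits Bmp2 kept its call in 0, Tgfbr2 in 1 and Pros1 in 1. Smaller differences were called in Med1, a Mediator subunit (-0.60 ± 0.10, adjusted p = 0.0367, and 0.144 without TM5614 library B), and in Pfkfb2, which sets the level of fructose 2,6-bisphosphate (-0.65 ± 0.10, adjusted p = 0.0243, and 0.108 without TM5614 library A). Med1 kept its call in 0 of the 6 fits and Pfkfb2 in 2.

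The genes called higher under rapamycin that follow were chosen after their values were seen. Pnkd, for a protein with a metallo-beta-lactamase domain (chromosome 1, 74284930 to 74353694), had 779, 847 and 844 under rapamycin, against 442, 469 and 466 under TM5614. The groups were far apart for the spread within each (log2 difference of 0.84 ± 0.09 (SE), adjusted p = 0.00865). Sco2, an assembly factor of cytochrome c oxidase, had 468, 474 and 542 under rapamycin, against 259, 278 and 317 under TM5614 (log2 difference of 0.80 ± 0.11 (SE), adjusted p = 0.02, and 0.095 without TM5614 library A). Crat, for carnitine acetyltransferase, had 526, 588 and 531 under rapamycin, against 310.0, 239.9 and 315 under TM5614 (log2 difference of 0.93 ± 0.12 (SE), adjusted p = 0.0174, and 0.0808 without rapamycin library B).

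Genes of cell junctions were called in both directions, with Cldn1 and Tjp3 higher and Ppl, given above, Jam2 and Marveld3 lower. Jam2, for a junctional adhesion molecule, had a log2 difference of -0.82 ± 0.15 (SE), adjusted p = 0.0372, and Marveld3, for a tight junction protein, one of -2.03 ± 0.35 (SE), adjusted p = 0.0367. Both adjusted p-values were highest without TM5614 library B (0.144). Jam2 kept its call in 0 of the 6 fits with 1 library left out and Marveld3 in 2. With voom weights Marveld3 was not called either (adjusted p = 0.053). Cldn1, for the tight junction protein claudin 1, had 347, 424 and 324 under rapamycin, against 158, 147 and 218 under TM5614 (log2 difference of 1.07 ± 0.17 (SE), adjusted p = 0.027, and 0.131 without TM5614 library A). Tjp3, for the scaffold ZO-3, had 245, 199 and 197 under rapamycin, against 59.6, 68.1 and 107 under TM5614 (log2 difference of 1.48 ± 0.21 (SE), adjusted p = 0.0216, and 0.0948 without TM5614 library A). Btg1, an antiproliferative gene, had 784, 465 and 532 under rapamycin, against 287, 269.8 and 256 under TM5614, with rapamycin library A the highest (log2 difference of 1.09 ± 0.17 (SE), adjusted p = 0.0286, and 0.125 without TM5614 library B). Ccng2, for the growth-arrest cyclin G2, had 205, 149 and 207 under rapamycin, against 57.7, 93.3 and 85.01 under TM5614 (log2 difference of 1.25 ± 0.21 (SE), adjusted p = 0.0313, and 0.101 without TM5614 library A). Srgap3, a GTPase-activating protein, had the largest difference among genes called higher after Arntl. It had 79.8, 90.4 and 49.04 under rapamycin, against 13.96, 12.1 and 22.7 under TM5614 (log2 difference of 2.1 ± 0.32 (SE), adjusted p = 0.025, and 0.115 without TM5614 library A). Dtx4, a ubiquitin ligase of the Deltex family, had 124, 139 and 154 under rapamycin, against 39.1, 47.6 and 58.3 under TM5614 (log2 difference of 1.52 ± 0.18 (SE), adjusted p = 0.0128, and 0.077 without rapamycin library B). Gbp6, an interferon-inducible GTPase outside the interferon list, had 158, 140.0 and 120.1 under rapamycin, against 63.3, 41.1 and 42.5 under TM5614 (log2 difference of 1.51 ± 0.20 (SE), adjusted p = 0.0175, and 0.0826 without rapamycin library B). Enpep, for the angiotensin-cleaving aminopeptidase A, had 903, 913 and 928 under rapamycin, against 614, 665 and 616 under TM5614, a small and even difference (log2 difference of 0.53 ± 0.08 (SE), adjusted p = 0.027, and 0.133 without TM5614 library A).

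The transcripts of the rapamycin target were at like levels under both compounds. In every list below in which limma called 0 genes, limma with voom weights called 0 as well. The number at an unadjusted p under 0.05 is given beside it. Over all genes tested, 1452 of 8265 had such a p in either direction, so a list holds some of these by its size alone. Mtor averaged 528 normalized counts under rapamycin and 536 under TM5614. Rictor, which defines mTOR complex 2, had 205, 192 and 205 under rapamycin, against 213, 201 and 204 under TM5614, and its libraries were interleaved (log2 difference of -0.04 ± 0.10 (SE), adjusted p = 0.87). Rptor, which defines complex 1, averaged 320.4 under rapamycin and 304 under TM5614, and Fkbp1a, for FKBP12 itself, averaged 496 and 394 in the same order. Of the 18 genes of the mTOR list 7 have library values and 0 were called by limma (0 higher and 2 lower at an unadjusted p under 0.05), with ratios above 0 in 7 and below in 11 (median -0.03). Tsc1, an inhibitor of the pathway, had 145, 134 and 118 under rapamycin, against 211, 187 and 169 under TM5614, with all rapamycin libraries below (log2 difference of -0.51 ± 0.13 (SE), adjusted p = 0.107). Rragd, for a GTPase that brings complex 1 to the lysosome, had 11.5, 12.6 and 5.004 under rapamycin, against 15.8, 20.5 and 23.7 under TM5614 (log2 difference of -1.04 ± 0.38 (SE), adjusted p = 0.205).

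Ribosomal protein, amino acid stress and autophagy genes, of processes that mTOR controls, had medians close to 0. Ribosomal protein genes had ratios above 0 in 61 of 79 and below in 18, beside 51.2% and 48.7% of all genes. Their median was 0.08, and 0 of the 9 with library values were called (1 before adjustment). Among 20 genes of amino acid stress, which ATF4 drives, 0 of 14 tested were called (1 before adjustment) and the median was 0.15. The highest of them, Atf3 and Ddit4, rest on rapamycin library A. Ddit4, an inhibitor of mTOR complex 1, had 471, 26.2 and 85.1 under rapamycin, against 81.00, 70.9 and 45.5 under TM5614 (log2 difference of 0.67 ± 0.82 (SE), adjusted p = 0.703), and its ratio of 1.55 was -0.24 without that library. Among 26 autophagy and lysosome genes the median was -0.02, with 12 above 0 and 14 below, and 0 of 9 tested were called (3 higher and 2 lower before adjustment). Atg14, a subunit of the kinase complex that starts autophagosomes, had 197, 168 and 191 under rapamycin, against 273, 349 and 253 under TM5614 (log2 difference of -0.64 ± 0.14 (SE), adjusted p = 0.067), and Atg7, an E1-like enzyme of the same process, had 503, 482 and 395 under rapamycin, against 329, 387 and 310.4 under TM5614 (log2 difference of 0.43 ± 0.13 (SE), adjusted p = 0.143). The first had every rapamycin library below TM5614 and the second every rapamycin library above, and neither passed.

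The fibrinolysis list, drawn up for the process on which TM5614 acts, had as many ratios above 0 as below. Of its 16 genes 5 have library values and 0 were called (1 lower before adjustment), with ratios above 0 in 8 and below in 8 (median 0.01). Past 2-fold higher was 1 of the 16 and past 2-fold lower were 0, beside 1.55% and 1.34% of all genes. Plg, for plasminogen, averaged 19314 under rapamycin and 19684 under TM5614. Plau, for urokinase, had 17.3, 12.6 and 16.01 under rapamycin, against 18.6, 9.33 and 28.7 under TM5614, which overlapped (log2 difference of -0.17 ± 0.39 (SE), adjusted p = 0.853), and Plat, for tissue plasminogen activator, was under the minimum mean of 10. F3, for tissue factor, the starter of coagulation, had 15.4, 8.75 and 11.01 under rapamycin, against 20.5, 25.2 and 24.7 under TM5614. Its rapamycin libraries were all below (log2 difference of -0.97 ± 0.29 (SE), adjusted p = 0.145). S100a10, for a plasminogen-binding partner of annexin A2, averaged 738 under rapamycin and 407 under TM5614.

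The genes that stood highest by the ratio of group means were inflammatory and early-response genes, and for those with library values the excess lay in rapamycin library A. Cxcl2, a chemokine that attracts neutrophils (chromosome 5, 90903871 to 90905938), had the highest ratio of all among genes with a higher group mean of at least 50. It had 323, 0 and 2.001 under rapamycin, against 0.931, 0 and 1.98 under TM5614. One library of 6 carried the transcript (log2 difference of 2.47 ± 1.75 (SE), adjusted p = 0.485). Cxcl10, an interferon-induced chemokine, had 517, 17.5 and 16.01 under rapamycin, against 13.96, 11.2 and 10.9 under TM5614. Ier3, an early-response survival gene, had 867, 12.6 and 9.01 under rapamycin, against 27.9, 19.6 and 12.8 under TM5614. Tlr2, the receptor of bacterial lipopeptides, had 748, 14.6 and 12.01 under rapamycin, against 40.96, 10.3 and 18.8 under TM5614. In each of these 3 genes library A was far above the next rapamycin library, and none passed (adjusted p = 0.356 for Cxcl10, 0.665 for Ier3 and 0.63 for Tlr2).

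The same library held the excess of Saa3, Il1b, Il1rn and Gadd45b. Saa3, an acute phase gene of macrophages as well as hepatocytes, had 1087, 22.4 and 24.02 under rapamycin, against 70.8, 35.5 and 10.9 under TM5614. Il1b, the cytokine interleukin 1 beta, had 175, 8.75 and 10.01 under rapamycin, against 13.96, 8.401 and 5.93 under TM5614. Il1rn, its receptor antagonist, had 395, 6.805 and 8.01 under rapamycin, against 48.4, 8.401 and 8.896 under TM5614, so TM5614 library A was also above its partners. Gadd45b, a stress gene, had 1237, 71.9 and 105 under rapamycin, against 44.7, 47.6 and 49.4 under TM5614, and here rapamycin libraries B and C too were above every TM5614 library (log2 difference of 2.14 ± 0.86 (SE), adjusted p = 0.246). Pde4b, a phosphodiesterase, followed the first pattern with 1059, 47.6 and 49.04 under rapamycin and 57.7, 51.3 and 47.4 under TM5614. Irs2, which carries insulin signals and rises on fasting, had 1097, 244 and 101 under rapamycin, against 105, 102 and 111 under TM5614, with B as well as A above the TM5614 libraries (log2 difference of 1.5 ± 0.67 (SE), adjusted p = 0.29).

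Over the list of 20 cytokine-induced regulators, 13 were past 2-fold higher and 1 past 2-fold lower, with a median ratio of 1.10. The background of past 2-fold higher was 1.55% of genes. Of the 20, 7 have library values and 0 were called (2 higher and 2 lower before adjustment), and their median of 1.09 was 0.30 without rapamycin library A. Summed over these 7 genes the libraries had 3413, 888 and 934 normalized counts under rapamycin, against 943, 1116 and 910.4 under TM5614. The 4 neutrophil markers measured (S100a8, S100a9, Retnlg and Csf3r) moved with them, at sums of 379, 63.2 and 68.1 under rapamycin, against 59.6, 70.9 and 87.97 under TM5614. The other 7 of the list, among them the granule genes Mpo and Elane, were not found among the genes in the table, so they have no value here. Of the 4 measured, 0 were called (0 before adjustment), and their median ratio of 1.14 was -0.09 without library A. The part of these cells in the high values of library A was not tested.

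Other genes of this kind rest on group means alone. Tnfaip3, for the NF-kappaB inhibitor A20, averaged 727 under rapamycin and 23.6 under TM5614, and Rnd1, for a small GTPase, averaged 975 and 33.1 in the same order. Their TM5614 libraries were low throughout, at 30.7, 22.4 and 17.8 for Tnfaip3 and 47.5, 28.9 and 22.7 for Rnd1. Socs3, the feedback inhibitor of interleukin 6 signals, averaged 1323 under rapamycin and 432 under TM5614. Il1r1, the interleukin 1 receptor, was the cytokine-induced regulator past 2-fold in the other direction, at 711 under rapamycin and 1883 under TM5614. Its rapamycin libraries had 769, 538 and 827, so its low mean was shared by all 3. Igfbp1, an insulin-repressed binding protein of IGF, averaged 9317 under rapamycin and 995 under TM5614, and its libraries could not be recovered in either group.

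**Figure D3:**
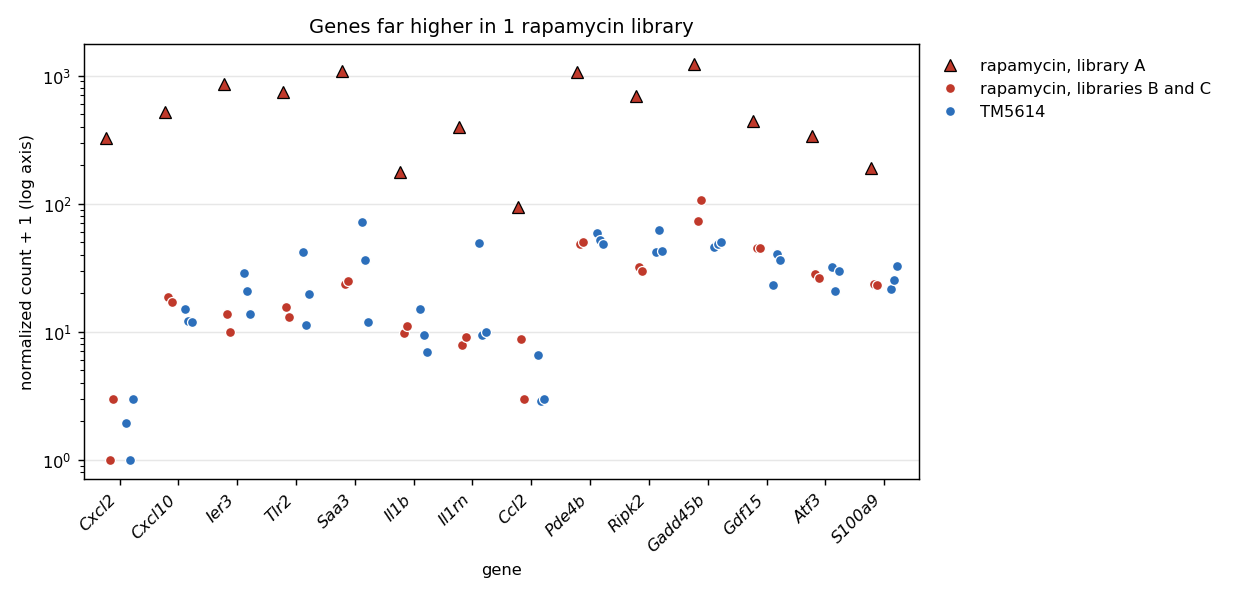
Normalized counts plus 1 (log axis) of 14 genes in rapamycin library A (triangles), rapamycin libraries B and C (red circles) and the 3 TM5614 libraries (blue circles). Library A is far above the other 5 in each gene, and B and C lie among or near the TM5614 libraries.

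The promoters of Cxcl2, Ier3 and Tnfaip3 are given because NF-kappaB sites of the form GGANTTTCC were in a promoter of 5 of the 21 genes with one among the 30 highest and lowest ratios, against 1.45% of all 27025 genes in the RefSeq table. Some genes have several promoters there, and a gene counts once. These 30 genes were picked by the ratio itself, so the share is a description of them only. Of the 15 highest, 10 have library values, and in 9 of those rapamycin library A was more than 4-fold above both others. The 5 were Alpk1, Cxcl10, Cxcl2, Ier3 and Tnfaip3, of which Alpk1 was among the lowest ratios and the other 4 among the highest. The lines give 250 bases before the RefSeq start (GRCm38.p6), with the NF-kappaB match and any E-box in capitals. Cxcl2 (chr5:90903649-90903898, plus strand) has the match at 96 bases before the start, Ier3 (chr17:35821463-35821712, plus strand) at 139, and Tnfaip3 (chr10:19015411-19015660, minus strand) at 24, with a CACGTG at 33.
Cxcl2: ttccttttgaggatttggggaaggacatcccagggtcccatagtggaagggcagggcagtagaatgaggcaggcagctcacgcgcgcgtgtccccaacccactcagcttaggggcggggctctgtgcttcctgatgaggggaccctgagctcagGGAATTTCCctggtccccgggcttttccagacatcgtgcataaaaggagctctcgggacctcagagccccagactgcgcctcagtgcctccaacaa
Ier3: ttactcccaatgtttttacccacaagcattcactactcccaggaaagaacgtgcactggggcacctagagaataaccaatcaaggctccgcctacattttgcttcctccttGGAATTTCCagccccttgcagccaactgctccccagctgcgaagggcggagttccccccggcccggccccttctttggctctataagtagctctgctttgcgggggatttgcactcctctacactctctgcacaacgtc
Tnfaip3: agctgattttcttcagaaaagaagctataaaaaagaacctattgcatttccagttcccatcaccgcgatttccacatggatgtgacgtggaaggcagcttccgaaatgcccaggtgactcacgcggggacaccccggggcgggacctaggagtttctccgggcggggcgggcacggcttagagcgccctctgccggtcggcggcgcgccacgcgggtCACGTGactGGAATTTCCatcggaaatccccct
Of the 21 cytokine-induced genes listed, 18 have a promoter in the table, and 2 of these held the NF-kappaB letters (Ier3 and Nfkbia), against 1.45% of all genes. The STAT form TTCNNNGAA was in 3 of the 18 (Irf1, Socs3 and Zfp36), against 9.55% of all genes, with both motifs searched on both strands.

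The acute phase list as a whole was not higher under rapamycin by ratio. Of 26 genes 9 had a ratio above 0 and 17 below, with a median of -0.13, and 0 of the 4 with library values were called (0 before adjustment). Summed, those 4 genes had 1723, 80.7 and 155 normalized counts under rapamycin, against 326, 332 and 88.96 under TM5614, highest in rapamycin library A. Saa1, a serum amyloid A gene of hepatocytes, averaged 4545 under rapamycin, 6855 under TM5614 and 696 in the control. Lcn2, for lipocalin 2, averaged 981 under rapamycin, 746 under TM5614 and 79.3 in the control. Against that control the authors' deposited table gives Lcn2 a log2 fold change of 3.63 under rapamycin (adjusted p = 0.0388) and 3.23 under TM5614 (adjusted p = 0.0447), and Saa1 2.71 (adjusted p = 0.0515) and 3.3 (adjusted p = 0.00396). Between the compounds the ratio was 0.39 for Lcn2 and -0.59 for Saa1. Interferon response genes, of which 23 of 26 were tested, had 0 calls (4 higher and 1 lower before adjustment) and a median of 0.19. Cxcl9, a chemokine induced by interferon gamma, had 122, 67.1 and 67.05 under rapamycin, against 40.96, 32.7 and 16.8 under TM5614, with every rapamycin library above (log2 difference of 1.5 ± 0.35 (SE), adjusted p = 0.082), and Igtp, an immunity-related GTPase, had 208, 267 and 255 under rapamycin, against 200.2, 126 and 123 under TM5614 (log2 difference of 0.73 ± 0.19 (SE), adjusted p = 0.112). All rapamycin libraries were above in 5 members and below in 1, beside 10.1% and 13.9% of all genes.

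Lipid genes were mostly above 0 by ratio and mostly too abundant for library values. Of 24 cholesterol genes 19 had a ratio above 0 and 5 below, with a median of 0.43, and 0 of 4 tested were called (3 higher and 1 lower before adjustment). Hmgcs1, an early enzyme of the mevalonate pathway, averaged 6076 under rapamycin and 2790.0 under TM5614. Mvd, which makes isopentenyl diphosphate, had 233, 166 and 141 under rapamycin, against 109.9, 74.7 and 67.2 under TM5614, with no overlap (log2 difference of 1.09 ± 0.23 (SE), adjusted p = 0.0593). Mvk and Lss, for mevalonate kinase and lanosterol synthase, likewise had all rapamycin libraries above (adjusted p = 0.102 and 0.0718). Without rapamycin library A the median of the 4 tested genes was 0.65, against 0.74 with it. In fatty acid synthesis the stearoyl-CoA desaturase gene Scd1 averaged 146272 under rapamycin and 78044 under TM5614, the elongase gene Elovl5 9081 and 3653, and Fasn, the fatty acid synthase, 6858 and 4832. Lpin1, a phosphatidate phosphatase and coactivator, went the other way at 4605 under rapamycin and 7834 under TM5614. That list had 12 ratios above 0 and 8 below (median 0.18), with 0 of 3 called (0 before adjustment). Srebf1, its transcription factor, averaged 1448 under rapamycin and 1114 under TM5614.

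Fatty acid oxidation had 24 of 26 ratios above 0, with a median of 0.29, again with 0 of 3 tested genes called (3 higher before adjustment). Vnn1, for the pantetheinase that PPAR alpha induces, had 565, 593 and 581 under rapamycin, against 193, 339.8 and 452 under TM5614. Its rapamycin libraries were close together and above all TM5614 libraries (log2 difference of 0.90 ± 0.25 (SE), adjusted p = 0.123). Cyp4a14, another PPAR alpha target, averaged 6428 under rapamycin and 3973 under TM5614, while Cpt1a, the entry enzyme of long chains into mitochondria, averaged 3388 and 3715 in the same order. Glucose output genes had 10 of 14 ratios above 0 (median 0.20), with 0 of 3 called (0 before adjustment). Pck1, for the gluconeogenic enzyme PEPCK, averaged 22789 under rapamycin and 19538 under TM5614, and G6pc, which releases glucose, 2337 and 1439.5. Ppp1r3g, a glycogen-targeting subunit, had 157, 50.5 and 64.05 under rapamycin, against 39.1, 52.3 and 5.93 under TM5614, a wide spread in both groups (log2 difference of 1.72 ± 0.71 (SE), adjusted p = 0.259). The insulin and IGF axis had 8 ratios above 0 and 8 below (median -0.02), with 0 of 5 called (2 lower before adjustment). Igf1 averaged 4096 under rapamycin and 4260.4 under TM5614. Fgf21, a fasting hormone, had 6.73, 13.6 and 32.02 under rapamycin, against 2.79, 1.87 and 31.6 under TM5614, so that library C was the highest in each group (log2 difference of 1.13 ± 0.88 (SE), adjusted p = 0.531).

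Bile acid and drug metabolism differed in single genes. Cyp7a1, whose enzyme starts the classical route from cholesterol to bile acids, averaged 848 under rapamycin and 2699 under TM5614 (ratio -1.67), whereas 15 of the 20 genes of that list had a ratio above 0 (median 0.14), and 0 of 2 tested were called (1 higher before adjustment). Cyp8b1, which sets the share of cholic acid, averaged 3604 under rapamycin and 2268 under TM5614. Among 31 xenobiotic genes 16 were above 0 and 15 below (median 0.04), and 0 of 7 tested were called (0 before adjustment). Cyp2b10, the classical target of the receptor CAR, had 11.5, 5.83 and 84.1 under rapamycin, against 99.6, 111 and 31.6 under TM5614. Rapamycin library C and TM5614 library C were each apart from their partners, in opposite directions (log2 difference of -1.89 ± 0.84 (SE), adjusted p = 0.288). Cyp2a5 averaged 2077 under rapamycin and 5008 under TM5614.

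Of 20 genes that are male-biased in mouse liver 15 had a ratio below 0, with a median of -0.37, and 5 were past 2-fold lower, beside 1.34% of all genes. Library values were to be had for 2 of the 20, and 1 was called lower, beside 0.69% of all genes tested. Ugt2b38, a glucuronosyltransferase gene, was called lower, with 27.9, 30.1 and 23.02 under rapamycin, against 66.1, 134 and 111 under TM5614 (log2 difference of -1.85 ± 0.27 (SE), adjusted p = 0.0243, and 0.0936 without TM5614 library B). The major urinary protein genes Mup7 and Mup1 averaged 21350.4 and 1185 under rapamycin, against 63829 and 3744 under TM5614. Elovl3, for an elongase, went the other way, at 4219 under rapamycin and 1201 under TM5614, as did Mup16, which is not on the list and was among the 15 highest ratios at 216 under rapamycin and 30.1 under TM5614. The TM5614 libraries of Mup16 had 88.4, 0.933 and 0.988, so nearly all of that TM5614 mean came from library A. Of 12 female-biased genes 8 were above 0 (median 0.29), with 0 of 11 called (2 higher before adjustment). Cyp2c40 had 72.1, 88.5 and 130.1 under rapamycin, against 18.6, 24.3 and 50.4 under TM5614, and Cyp2c69 had 25.97, 35.97 and 39.03 under rapamycin, against 13.96, 13.1 and 7.91 under TM5614. In both genes all rapamycin libraries were above (adjusted p = 0.0646 and 0.0578). Genes of the Mup, Ugt2b and Cyp2c families have near-identical copies, so their counts may be split between copies. Among the 15 lowest ratios, Mup9 was called with 56.7, 41.8 and 38.03 under rapamycin, against 108, 228 and 162 under TM5614 (log2 difference of -1.8 ± 0.27 (SE), adjusted p = 0.025, and 0.0942 without rapamycin library B), and the paralog C4a averaged 177 under rapamycin and 1186 under TM5614. The lowest ratio of all was Amd1, for an enzyme of polyamine synthesis that cells use widely. It was listed at 0 in all 3 rapamycin libraries and at 309, 0 and 0 in the TM5614 libraries, and at 0 in the control mean. Whether these zeros come from how reads were assigned was not tested.

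All 18 targets of NRF2, the regulator of antioxidant genes, that were kept had a ratio above 0, with a median of 0.40, beside 51.2% of all genes, and 0 of the 5 with library values were called (2 higher before adjustment). Hmox1, for heme oxygenase 1, averaged 952 under rapamycin and 259 under TM5614, and Gclc, for the first enzyme of glutathione synthesis, 3514 and 1949. Nqo1, a quinone reductase, had 49.05, 72.9 and 81.1 under rapamycin, against 52.1, 31.7 and 55.4 under TM5614, which overlapped (log2 difference of 0.54 ± 0.27 (SE), adjusted p = 0.334). The median over the 5 tested was 0.42 without library A, against 0.43 with it. In the senescence and p53 list 12 of 17 were above 0 (median 0.17), and 0 of 12 tested were called (2 higher and 1 lower before adjustment). All rapamycin libraries were above in 3 of the 12 and below in 4, beside 10.1% and 13.9% of all genes. The median of those tested was -0.07 without library A, against 0.10 with it. Cdkn1a, for the cyclin-dependent kinase inhibitor p21, averaged 1276 under rapamycin and 261 under TM5614. Its TM5614 libraries had 177, 203 and 402. Bbc3, for the BH3 protein PUMA, had 72.1, 52.5 and 38.03 under rapamycin, against 22.3, 17.7 and 16.8 under TM5614, with all rapamycin libraries above (log2 difference of 1.43 ± 0.28 (SE), adjusted p = 0.0511). Gdf15, a stress hormone, had 439, 43.7 and 44.03 under rapamycin, against 22.3, 39.2 and 35.6 under TM5614, which again was high in library A (log2 difference of 1.56 ± 0.76 (SE), adjusted p = 0.32). Complex I genes had 33 of 36 ratios above 0 with a small median of 0.22, and 0 of 11 called (4 higher before adjustment). Ndufa11, an accessory subunit, had 324, 311 and 347 under rapamycin, against 247, 242 and 209 under TM5614 (log2 difference of 0.50 ± 0.11 (SE), adjusted p = 0.067).

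The unfolded protein response and heat shock lists were close to 0, with medians of 0.03 and -0.09 and 0 calls among 2 and 8 tested genes (1 lower in each before adjustment). Iron genes had 14 of 18 ratios above 0 (median 0.17), with 0 of 8 called (3 higher before adjustment). Hamp, for the iron hormone hepcidin, averaged 6452 under rapamycin and 4404 under TM5614, while its inducer Bmp2 was lower under rapamycin, as given above. Smad7, a feedback inhibitor of BMP signals, had 104, 107 and 178 under rapamycin, against 54.00, 86.8 and 69.2 under TM5614 (log2 difference of 0.86 ± 0.25 (SE), adjusted p = 0.129). Urea cycle and amino acid genes had 14 ratios above 0 and 16 below (median -0.03), with 0 of 1 called (0 before adjustment). Complement genes had 8 above and 15 below (median -0.07), with 0 of 5 called (0 before adjustment).

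Markers of sinusoidal endothelium were lower under rapamycin in 11 of 12 genes by ratio, with a median of -0.49. Of the 12, all tested, 1 was called lower (9 before adjustment), beside 0.69% of all genes tested. In 6 of the 12 all rapamycin libraries were below all TM5614 libraries, beside 13.9% of all genes. Stab1, for a scavenger receptor of these cells (chromosome 14, 31139013 to 31168641), had 159.7, 173 and 158 under rapamycin, against 266, 254 and 333 under TM5614. It was called (log2 difference of -0.79 ± 0.13 (SE), adjusted p = 0.0294, and 0.112 without TM5614 library A). Mrc1, for the mannose receptor, had 129, 195 and 128 under rapamycin, against 239, 218 and 248 under TM5614 (log2 difference of -0.66 ± 0.17 (SE), adjusted p = 0.101), and Clec4g, for a lectin, had 165, 218 and 176 under rapamycin, against 235, 258 and 267 under TM5614 (log2 difference of -0.45 ± 0.13 (SE), adjusted p = 0.13). Lyve1, for a hyaluronan receptor, had 97.1, 69.99 and 69.1 under rapamycin, against 93.1, 119 and 140.4 under TM5614, which overlapped (log2 difference of -0.57 ± 0.20 (SE), adjusted p = 0.198). Ehd3 was the exception, with 272, 276 and 144 under rapamycin, against 194, 229.6 and 238 under TM5614 (log2 difference of 0.01 ± 0.23 (SE), adjusted p = 0.987). Summed over the 12 markers the libraries had 1680.2, 1969.5 and 1279.95 normalized counts under rapamycin, against 2035, 2272 and 2509.7 under TM5614. Without rapamycin library A the median ratio was -0.46. In RNA from whole liver, fewer cells of a type and less RNA per cell cannot be told apart.

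Matrix and stellate cell genes leaned the same way. Of 23 matrix genes 19 had a ratio below 0 (median -0.36) and 0 of 19 tested were called (1 higher and 9 lower before adjustment), with all rapamycin libraries below in 7 and above in 2, beside 13.9% and 10.1% of all genes. Timp3, an inhibitor of matrix proteases, had 156, 211 and 179 under rapamycin, against 237, 339.8 and 304 under TM5614 (log2 difference of -0.68 ± 0.16 (SE), adjusted p = 0.0816). Col6a1, a chain of collagen VI, had 49.05, 71.9 and 52.04 under rapamycin, against 94.96, 92.4 and 105 under TM5614 (log2 difference of -0.76 ± 0.18 (SE), adjusted p = 0.0876). Col1a1, of fibrillar collagen, had 36.5, 79.7 and 88.1 under rapamycin, against 136, 74.7 and 139 under TM5614, with overlap (log2 difference of -0.81 ± 0.35 (SE), adjusted p = 0.277). The stellate cell markers had 10 of 12 ratios below 0 (median -0.27) and 0 of 10 called (2 lower before adjustment). Kupffer cell and macrophage markers did not share this, with 5 of 13 above 0, 8 below, a median of -0.01 and 0 of 12 called (0 before adjustment). Their sums were 1622, 1600.1 and 909 under rapamycin, against 1453, 1151 and 1321 under TM5614, so rapamycin library C was the lowest of all 6 in macrophage as in endothelial markers. Pericentral hepatocyte markers had 9 of 10 ratios below 0 (median -0.50), with 0 of 5 called (1 lower before adjustment), and Glul, the glutamine synthetase of that zone, averaged 6341 under rapamycin and 8839 under TM5614. Periportal hepatocyte markers had 5 ratios above 0 and 3 below (median 0.17, 0 of 1 called, 1 higher before adjustment), and bile duct markers 3 above and 2 below (median 0.08, 0 of 5 called, 1 higher before adjustment). Sox9, on both lists, had 261, 115 and 108 under rapamycin, against 54.00, 60.7 and 67.2 under TM5614, with every rapamycin library above (log2 difference of 1.28 ± 0.30 (SE), adjusted p = 0.0833).

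**Figure D4:**
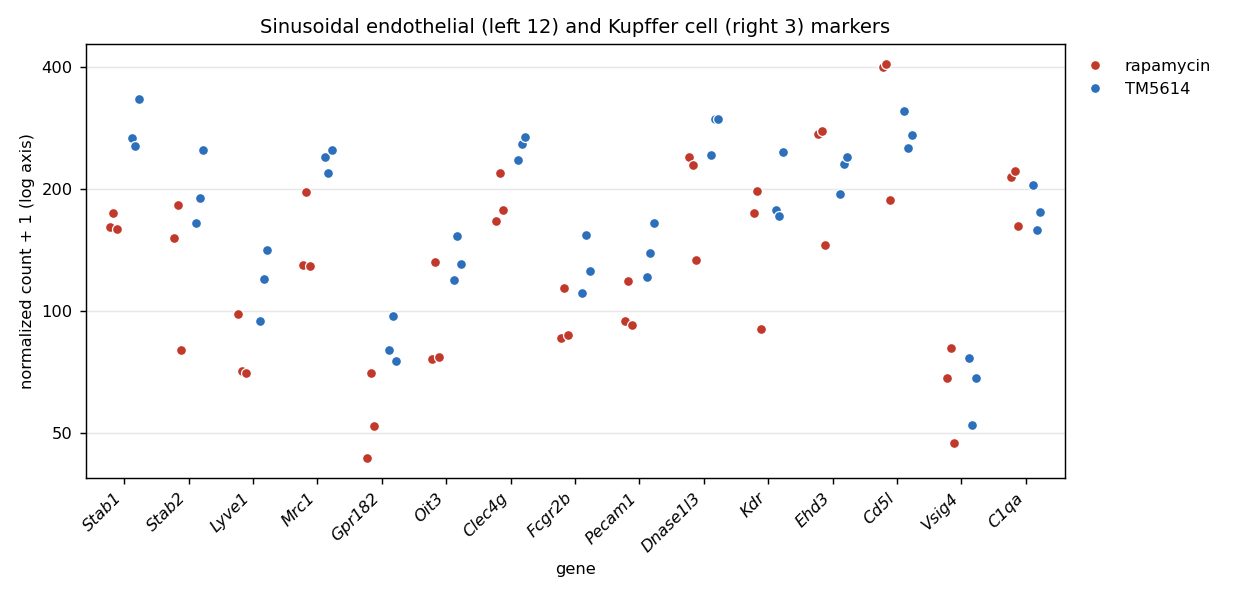
Normalized counts plus 1 (log axis) of the 12 sinusoidal endothelial markers and 3 Kupffer cell markers in each rapamycin (red) and TM5614 (blue) library. Most endothelial markers are lower under rapamycin, 6 of the 12 without any overlap, Stab1 among them, and the Kupffer cell markers overlap.

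**Figure D5:**
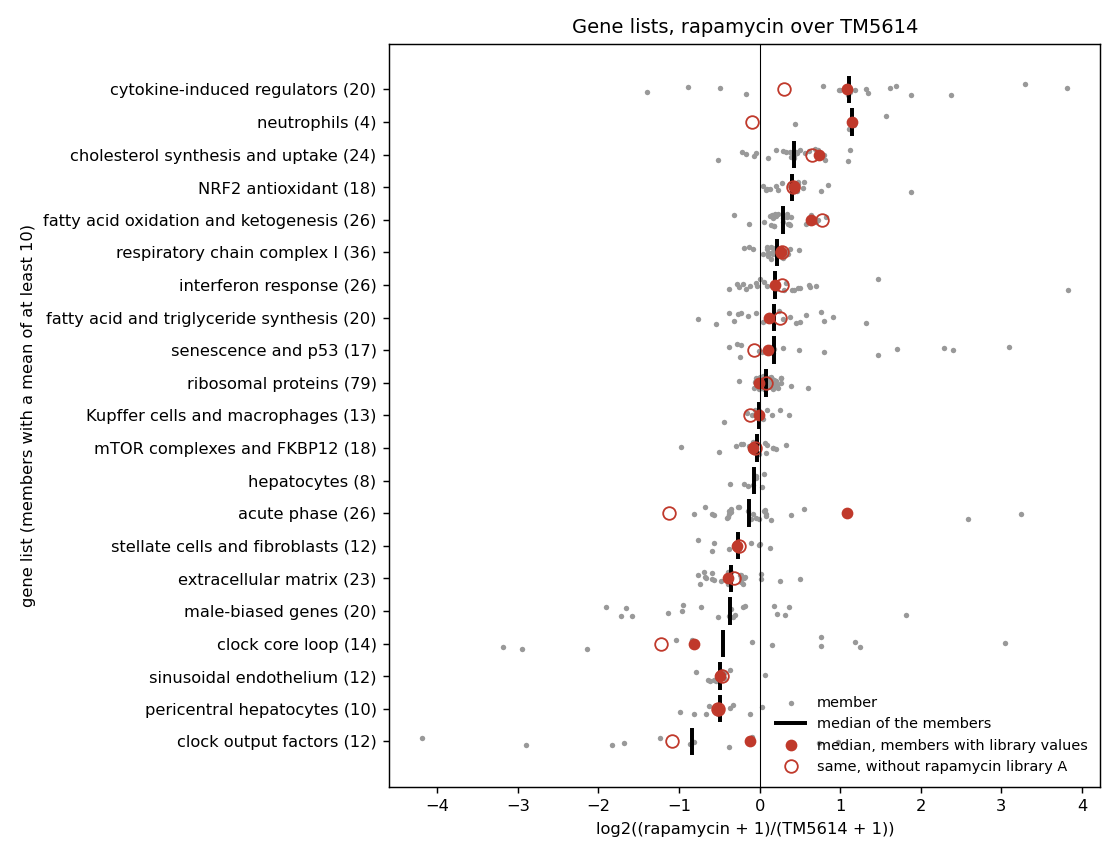
Log2 ratios of rapamycin over TM5614 for the members of 21 gene lists (grey points, number of members in brackets), with the median of all members (black bar), of the members with library values (filled circle) and of those without rapamycin library A (open circle). Cytokine-induced regulators, neutrophil markers and acute phase genes move towards or past 0 without library A, while the medians of cholesterol, NRF2, endothelial and matrix genes lie close to their values with it. The circles cover members with library values only, 4 of 24 cholesterol and 5 of 18 NRF2 genes. The clock medians move away from 0 without library A, from -0.12 to -1.08 for output factors and from -0.81 to -1.23 for the core loop.

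Each compound was also set against the ad libitum control by the authors, with the same control libraries in both comparisons. By the authors' deposited table, 144 of the 10369 genes kept that have an adjusted p (1.39%) were called under rapamycin and 429 of 10834 (3.96%) under TM5614. The genes called there under 1 compound with the smallest adjusted p, and yet alike between the compounds, were Il11ra1, Naa50, Nap1l1, Pdp2, Qdpr and St3gal1, all with a log2 ratio between the compounds under 0.25 in size. Qdpr, which recycles tetrahydrobiopterin, averaged 4423 under rapamycin, 3760.0 under TM5614 and 5041 in the control. Nap1l1, for a nucleosome assembly protein, averaged 708 under rapamycin, 604 under TM5614 and 488 in the control. Pdp2, for a phosphatase that activates pyruvate dehydrogenase, had 222, 212 and 243 under rapamycin, against 239, 256 and 261 under TM5614, with a log2 difference of -0.16 ± 0.10 (SE), adjusted p = 0.446. For Nap1l1 the authors' deposited table gives 0.54 under rapamycin (adjusted p = 0.00197) and 0.31 under TM5614 (adjusted p = 0.0962), and for Pdp2 0.51 (adjusted p = 0.0841) and 0.67 (adjusted p = 0.00375). In these genes a call under 1 compound and not under the other stood beside like means in both.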

How the data were processed

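Reads were aligned with HISAT2 2.0.5 to mm10, per the submitters' processing notes; which counter was used and with which strand setting is not given in the sources used here, so overlapping or antisense genes may share reads. The authors deposited 1 table with a normalized count signal per group (a group mean of read counts, each over the size factor of its library, which the authors made with DESeq2 according to the table's name). The same table holds log2 fold changes and adjusted p-values against the control, as deposited by the authors. Another table has 18 columns that could be tied to no label, and its values were not used.

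Whole reads per library were recovered from the group means by exhaustive search for genes up to a mean of about 1000, a step devised after the data were seen; no mean under 1000 lacked a solution. The control mean also fits 3 libraries, although the labels list 6, and which of them it covers is not known. Recovered values of the 8265 genes were compared between the 3 rapamycin and 3 TM5614 libraries with limma 3.58.1 in R 4.3.3 (log2(value + 1), trend, Benjamini-Hochberg adjustment); the fit and the search were tested on simulated data. The members and gene lists were chosen with earlier results of these data known. Genes named are the 15 highest and 15 lowest ratios with a higher group mean of at least 50, up to 4 members per list by the size of the ratio, a fixed set of 19 genes, those called oppositely by the authors, and 6 called by the authors under 1 compound with a like level under both; any other gene was chosen after its values were seen. A few genes that these rules select are not reported here. Coordinates are from GENCODE vM21 (mm10), promoters from RefSeq (GRCm38.p6). Each list is described by counts and its median, with no test of its own. Series design text speaks of 30 mice, while the labels hold 18 libraries. Total reads per library are unknown.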

Additional observations from a re-analysis of the deposited data

How the results depend on the processing

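The counts of called genes depended on the filter and on single libraries. Against 37 genes higher and 57 lower under rapamycin, limma called 7 and 10 with no filter on low values, 59 and 72 with a mean of at least 50, and 64 and 76 with a higher group mean of at least 50. Leaving out 1 library at a time gave 5 to 39 higher and 6 to 60 lower. Pseudocounts of 0.1 and 10, 3 other scalings (log2 shifts of -0.009 to -0.029) and voom weights kept both counts within 1.5 times. Of the ratios of group means, 467 were past 1.5-fold and 33 past 4-fold higher, and 731 and 17 lower. The 150 past 2-fold lower became 67 with a pseudocount of 10, 67 with a mean of at least 50 and 77 with a higher group mean of at least 50, the cause not being tested. Among genes with library values, 121 higher became 72 to 151 and 128 lower became 136 to 201 with 1 library left out. By the authors' deposited table, 251 genes passed an adjusted p of 0.1 and 44 an adjusted p of 0.01 under rapamycin, against 775 and 158 under TM5614. No paired analysis was possible because the recovered libraries carry no replicate numbers. Genes above a mean of about 1000 have no library values, so neither their spread nor the share of library A in them is known.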
